A study of Mus musculus with 50 samples.

Results

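The nuclear factor I (NFI) family has 4 members in the mouse, *Nfia*, *Nfib*, *Nfic* and *Nfix*, and all 4 were followed here in motor neurons from the embryo to old age and in culture. They were taken by symbol, 4 of the 55385 genes in the deposited gene files, and none was chosen by its level. RNA was sequenced in 28 libraries and open chromatin, by ATAC-seq, in 22. The in vivo groups were spinal motor neurons of 2 embryonic ages (E10.5 and E13.5), of P4 and P13, of the young adult (P21 and P56) and of mice aged 2 years. At E10.5 they were whole cells sorted from C57BL/6 embryos carrying HB9-GFP, which marks cells with an active motor neuron gene. From E13.5 on they were nuclei of mice that the labels give as C57BL/6 with Chat-Cre and SUN1-GFP-3xMYC, a tag of the nuclear envelope. The paper's methods give this tag with other GFP and MYC copy numbers. The Cre driver also labels cholinergic neurons other than motor neurons. Animals were pooled within each library. The in vitro groups were nuclei of motor neurons made from mouse embryonic stem cells, which the labels give the same Chat-Cre and SUN1-GFP-3xMYC genotype, taken from the embryoid bodies on the day of dissociation (DIV0) or after 7 or 28 days on cortical astrocytes (DIV7, DIV28). A further DIV28 group was grown for the whole period in 1 µM tetrodotoxin (TTX), which blocks sodium channels and with them action potentials.

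NFI proteins are transcription factors that bind DNA as homodimers or heterodimers through a conserved amino-terminal domain, at a palindrome of TTGGC and its reverse complement GCCAA, 5 bases apart, and more weakly at TTGGC alone. In the developing nervous system they are best known for the switch from neurogenesis to gliogenesis, which NFIA and NFIB promote in the spinal cord. In neurons they mark cells born late, and they act in migration and in the later growth of dendrites and synapses.

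The RNA libraries held between 2704642 and 21823492 counts (median 4292654), so members under 100 normalised counts rested on few reads in most libraries. All 7 motor neuron markers (*Chat*, *Slc5a7*, *Slc18a3*, *Isl1*, *Isl2*, *Mnx1*, *Prph*) had counts in all 11 groups. Their summed level lay between 1562 and 9625 normalised counts. The 6 endothelial markers summed to between 13256 and 24988 normalised counts at E13.5, to between 5654 and 7726 at P4, to under 523 at P13 and to at most 78.7 at P21, P56 and 2 years. The 8 oligodendrocyte markers summed to between 11629 and 11677 at P13, where the motor neuron markers summed to between 3581 and 3778. Their sum was 6395 to 8639 at P21, 2230 to 3366 at P56 and 1636 to 1738 at 2 years for the oligodendrocyte markers. The part of these cells in the NFI values was not tested. One RNA library carries a DIV0 title while its file is labelled DIV28. It was placed at DIV28 as replicate 3, and calls that change without it are named. The labels do not say whether the replicates of the cultures came from separate differentiations, and p-values then measure only the spread between these libraries.

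The members differed in level at every age. Per kb of effective transcript length, which allows genes to be compared, *Nfib* and *Nfia* together made up most of the family's RNA in vivo from E13.5 on. At P21 the group mean share of the family was 42.5% ± 3.57 (SD, n = 3) for *Nfib*, 34.8% ± 4.37 for *Nfia*, 16.8% ± 2.70 for *Nfic* and 5.93% ± 0.721 for *Nfix*. The ranking was *Nfib*, *Nfia*, *Nfic*, *Nfix* at E13.5, P4, P21 and P56, with *Nfia* ahead of *Nfib* at P13 and 2 years. In DIV0 nuclei *Nfia* alone made up 83.6% ± 1.87 (SD, n = 2) of the family. At DIV28 *Nfic* led with a mean of 47.4% ± 12 (SD, n = 3), while *Nfib* held 7.72% ± 6.52. The library titled DIV0 stood apart here. In it *Nfia* led with 38.3% against 33.9% for *Nfic*, and *Nfib* held 15.2%, against 3.01% and 4.99% in the other DIV28 libraries. The family's sum per kb was 61.7 ± 24.5 normalised counts at E10.5 (n = 3), 488 ± 36.1 at E13.5 (n = 2), 617 ± 32.6 at P4 (n = 3), 472 ± 45.3 at P21 (n = 3), 368 ± 63.6 at DIV0 (n = 2) and 118 ± 18.2 at DIV28 (n = 3). The estimated effective length of a member was not constant over the libraries. For *Nfia* it ran from 1232 to 4905 bases and for *Nfix* from 983 to 5307, so the changes described next use counts without division by length.

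**Figure D1:**
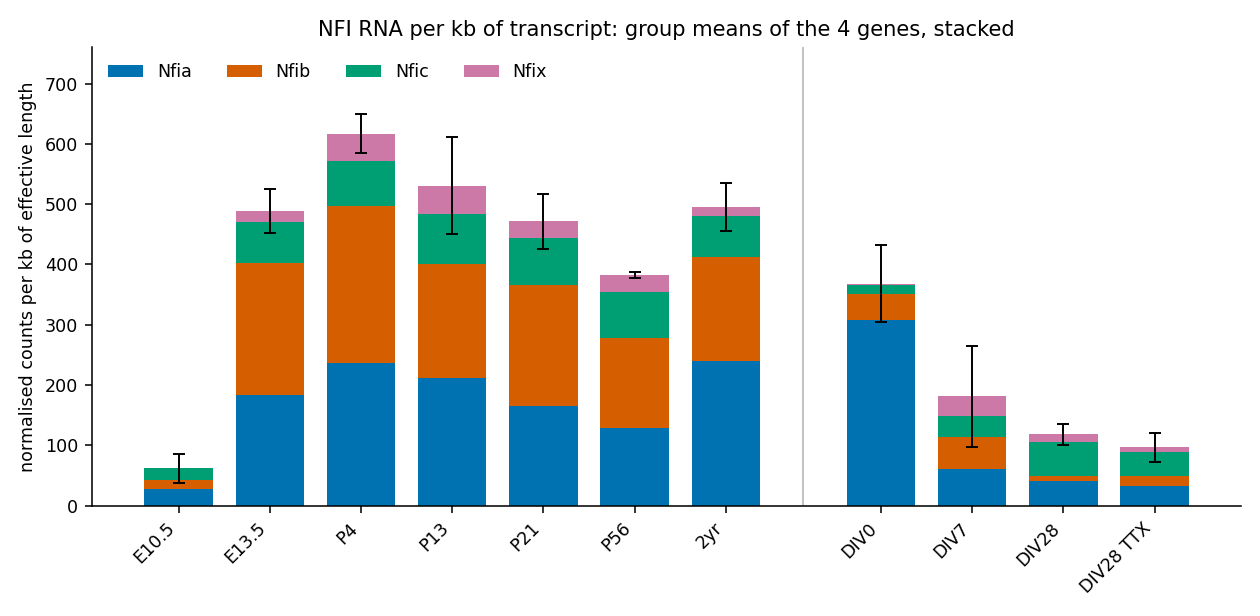
Stacked bars show the group means of the 4 NFI genes in normalised counts per kb of effective length (vertical axis) for the 11 RNA-seq groups (horizontal axis), and the error bar is the SD of the family's sum over libraries. The family's sum was 61.7 at E10.5 and 488 at E13.5, and *Nfia* made up 83.6% of it at DIV0 and *Nfic* 47.4% at DIV28.

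*Nfia* (ENSMUSG00000028565.18) lies on the plus strand of chr4:97772734-98118874 in mm10. In the E10.5 libraries it had 64.1, 27.7 and 114 normalised counts, and in the E13.5 libraries 891 and 645. It then held 802, 725 and 839 at P4, 495 and 617 at P13, 495, 658 and 537 at P21, 421, 413 and 426 at P56 and 527 and 550 at 2 years. Every in vivo library from E13.5 on lay above the E10.5 range. Between E13.5 and 2 years the group means stayed between 420 and 788. In culture *Nfia* stood at 686 and 807 normalised counts at DIV0, within the range of the E13.5 libraries. It fell to 122 and 159 at DIV7 and lay at 95, 86.9 and 122 at DIV28. With TTX the values were 95.3, 101 and 141, which overlap those without it. Ordered by mean, P4, E13.5 and DIV0 were highest with overlapping ranges, P21, P13 and 2 years followed with overlapping ranges, then P56 and, below a gap, DIV7, both DIV28 groups and E10.5, each overlapping the next.

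*Nfib* (ENSMUSG00000008575.17) lies on the minus strand of chr4:82290173-82705750, on the same chromosome as *Nfia*. It had 83.2, 22.8 and 83.1 normalised counts at E10.5 and 1232 and 1187 at E13.5, its highest group mean. It held 1186, 1010 and 1141 at P4, 763 and 909 at P13, 778, 967 and 767 at P21, 631, 597 and 586 at P56 and 777 and 727 at 2 years. The P4 range lay just under that of E13.5, and both lay above all later ages. In culture *Nfib* had only 173 and 188 normalised counts at DIV0 and 158 and 281 at DIV7. The DIV28 libraries held 13.9, 36.8 and 81.7, the last in the library titled DIV0, and the TTX libraries 38.7, 92.8 and 79.5. The DIV28 values spanned a wide range and overlapped those with TTX and those at E10.5.

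*Nfic* (ENSMUSG00000055053.18) lies on the minus strand of chr10:81396186-81455635. It had 75.6, 31.8 and 121 normalised counts at E10.5, 221 and 256 at E13.5 and 394, 326 and 333 at P4. At later ages the group means were 365 at P13, 406 at P21, 367 at P56 and 300 at 2 years, with the P21 libraries close together at 401, 412 and 405. The order of means was P21, P56, P13 and P4, each overlapping the next, then 2 years, DIV28 and E13.5, again each overlapping the next. In culture *Nfic* went the opposite way to *Nfia*. It had 57.5 and 58.1 normalised counts at DIV0, 135.04 and 148 at DIV7, and 255, 310 and 217 at DIV28. With TTX it had 220, 155 and 101, and 2 of these 3 libraries lay below every DIV28 library without TTX.

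*Nfix* (ENSMUSG00000001911.16) lies on the minus strand of chr8:84699876-84800344 and had the lowest share of the family per kb in every group except DIV28, where *Nfib* was lower. No count of *Nfix* was found in any of the 3 E10.5 libraries, which allows up to 3 counts per library, or 2.22 normalised counts on average. It had 66.5 and 32.6 normalised counts at E13.5, 113, 138 and 91.1 at P4, 57.7 and 70.6 at P13, 79.7, 77.3 and 66.3 at P21, 77.0, 69.6 and 63.3 at P56, and 44.4 and 62.4 at 2 years. Against the floor its group mean was at least 22.3-fold higher at E13.5 and at least 33.6-fold higher at P21 than at E10.5. This bound covers the E10.5 count only and not the spread between the later libraries. The DIV0 libraries had 4 counts each, or 5.23 and 6.12 normalised counts. *Nfix* was high at DIV7, with 71.3 and 126, and low again at DIV28, with 10.4, 21.6 and 21.1. The TTX values were 16.7, 36.4 and 22.7. Apart from E10.5 and DIV0, neighbouring groups in the order of means overlapped.

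**Figure D2:**
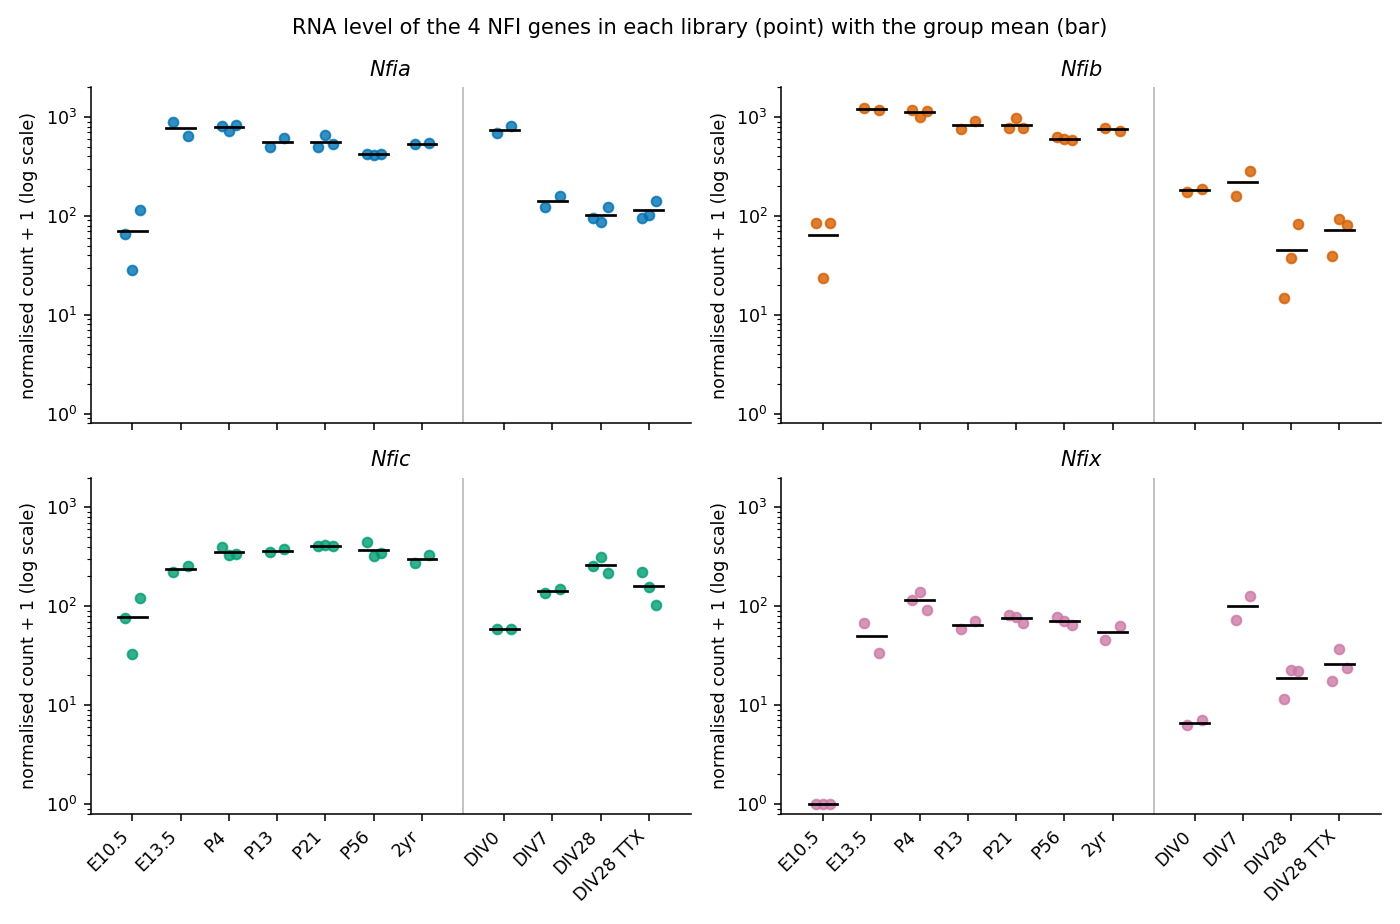
Each point is an RNA-seq library and each black bar a group mean, for the 4 genes in the 7 in vivo and 4 in vitro groups (horizontal axis), with normalised counts plus 1 on a log axis (vertical). All 4 genes were lowest in vivo at E10.5, *Nfix* with no count, and in culture *Nfia* fell from 747 at DIV0 to 101 at DIV28 while *Nfic* rose from 57.8 to 261.

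The first comparison asked how the members changed between consecutive ages. All 4 members rose from E10.5 to E13.5, the only step at which more than 1 of them did. *Nfib* rose by a log2 fold change of 4.11 (SE 0.31, adjusted p = 4.6e-09), *Nfia* by 3.32 (SE 0.33, adjusted p = 1.0e-07) and *Nfic* by 1.5 (SE 0.32, adjusted p = 0.00041), by edgeR with p-values adjusted over all tested genes. *Nfix*, with no count at E10.5, passed the same test (adjusted p = 3.7e-08), and its size is given only by the bound above. A gene was called at an unadjusted p under 0.001 and at least a 2-fold change. At this step 24.6% of the 15030 tested genes were called higher and 44.1% were called in either direction, so a call here was common. From E10.5 to P21, a comparison that leaves out E13.5, the 4 members were called higher again, with 34.7% of genes called higher. *Nfib* was then 3.73 higher (SE 0.30), *Nfia* 3.03 (SE 0.31) and *Nfic* 2.41 (SE 0.30) on the log2 scale.

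These changes moved with other features of the libraries. From E10.5 to E13.5 the material went from whole cells to nuclei. The reporter changed as well, and by the paper's methods so did the purification (sorting to affinity) and the cord segments taken for RNA. The effects of these and of age cannot be told apart. All 6 endothelial markers, 5 of 5 fibroblast and pericyte markers and 4 of 4 erythroid markers were called higher at E13.5. The endothelial markers summed to between 5.35 and 19.4 normalised counts at E10.5, where *Cdh5* was at 0. By P21 their sum was at most 78.7 while none of the 4 members was called different from E13.5. The part of these cells in the E13.5 values was not tested, and in bulk RNA fewer cells of a type and less RNA per cell cannot be told apart. The motor neuron markers did not move one way at this step, with 2 of 7 called higher (*Prph* and *Slc5a7*) and 4 called lower (*Mnx1*, *Isl2*, *Slc18a3* and *Isl1*), and their part in the NFI values was not tested. *Nfic* lost its call without E13.5 replicate 2 (log2 fold change 1.37, unadjusted p = 0.0025).

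From E13.5 to P4 *Nfix* rose by a further 1.4 on the log2 scale (SE 0.30, adjusted p = 0.00064, edgeR) in a comparison with 23.8% of genes called higher. This call rested on single libraries. Without E13.5 replicate 2 the change was 0.94 (unadjusted p = 0.0087) and without P4 replicate 2 it was 1.24 (unadjusted p = 0.0018). The astrocyte markers summed to between 1196 and 1345 normalised counts at E13.5 and between 3404 and 4153 at P4, and the oligodendrocyte markers to between 337 and 419 and between 2133 and 2759. Their part in the *Nfix* change was not tested. The other members were not called, with log2 fold changes of 0.19 for *Nfia*, 0.03 for *Nfib* and 0.70 for *Nfic*. None of the 4 was called from P4 to P13, P13 to P21, P21 to P56 or P56 to 2 years, where 13.3%, 7.30%, 0.173% and 0.685% of genes were called. Their log2 fold changes over these 4 steps lay between -0.75 and 0.44, and the lowest unadjusted p in edgeR's test was 0.0198, for *Nfix* from P4 to P13. Over the whole span from E13.5 to P21, where 56.1% of genes were called, *Nfic* was 0.92 higher (SE 0.31, adjusted p = 0.013) and *Nfix* 0.78 higher (SE 0.30, adjusted p = 0.027) in edgeR's test. Both sizes were under 2-fold. *Nfia* at -0.29 (SE 0.31) and *Nfib* at -0.38 (SE 0.28) did not pass. Glial markers also differed over this span. The 10 astrocyte markers summed to between 1835 and 2361 normalised counts at P21, 5 called higher and 2 lower. The 8 oligodendrocyte markers summed to between 6395 and 8639 at P21, 7 called higher and 1 lower, and none of 6 microglial markers passed the filter on low counts. Their part in the NFI values was not tested.

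**Figure D3:**
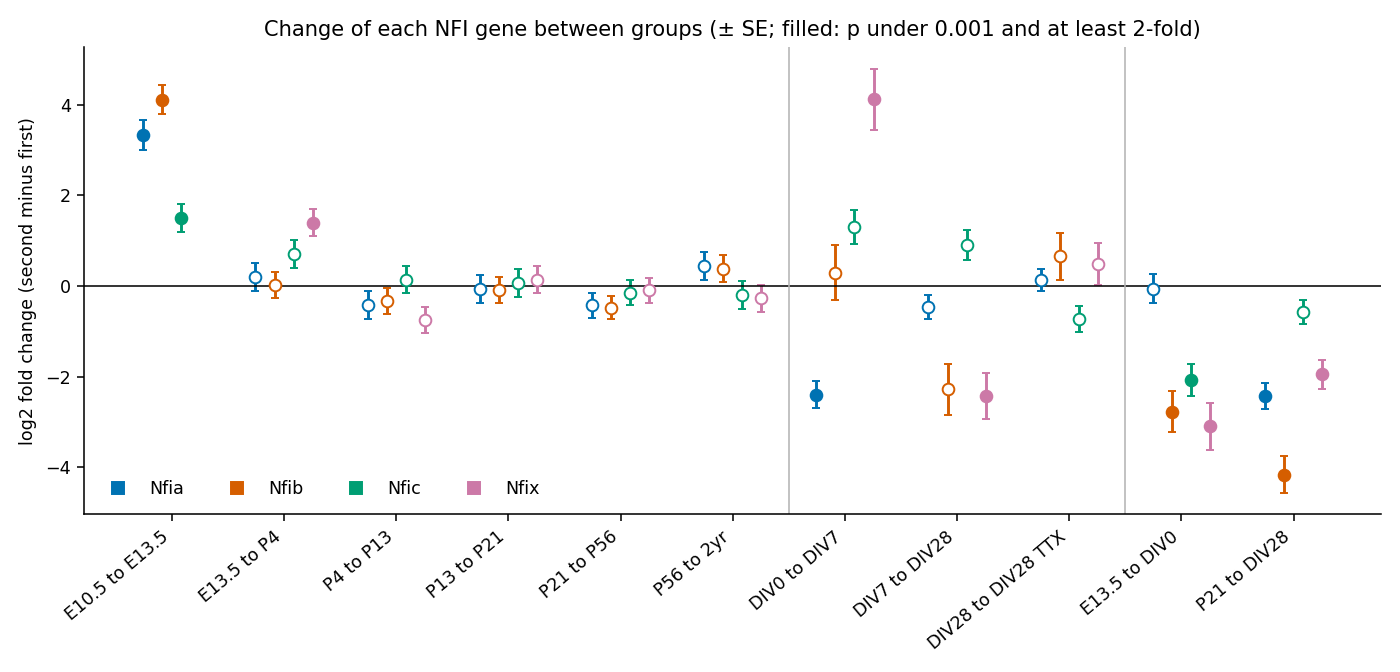
Points are edgeR log2 fold changes (vertical axis, second group minus first) with their SE for each NFI gene in 11 comparisons (horizontal axis), and filled points passed an unadjusted p of 0.001 and 2-fold. After the first step in vivo only *Nfix* from E13.5 to P4 was filled, and in culture *Nfia* fell and *Nfix* rose from DIV0 to DIV7. *Nfix* from E10.5 to E13.5 is not drawn because it had no count at E10.5.

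In culture the members went separate ways. From DIV0 to DIV7 *Nfia* fell by 2.40 on the log2 scale (SE 0.30, adjusted p = 0.00023) and *Nfix* rose by 4.11 (SE 0.68, adjusted p = 0.0012, edgeR), with 11.2% of the 12890 tested genes called, 2.81% lower and 8.36% higher. *Nfic* was 1.3 higher (SE 0.38, adjusted p = 0.028), past an adjusted p of 0.05 and 2-fold but not past the unadjusted limit. *Nfib* was at 0.29 (SE 0.60, adjusted p = 0.76). *Nfix* had only 4 counts in each DIV0 library, and its call was lost without either DIV0 library or without DIV7 replicate 2, with log2 fold changes between 3.59 and 4.22. From DIV7 to DIV28 *Nfix* fell by 2.43 (SE 0.50, adjusted p = 0.0074), a call lost without DIV7 replicate 2 or any DIV28 library, with 7.70% of genes called in either direction and 4.09% called lower. *Nfib* was at -2.28 (SE 0.56, adjusted p = 0.016), past the adjusted limit and not the unadjusted one, and without DIV28 replicate 3 it passed both at -3.01. Fibroblast and pericyte markers were also higher at DIV7 in their summed level. It was 1.31 to 7.65 normalised counts at DIV0, 144 to 1534 at DIV7 and 1.46 to 306 at DIV28, all 5 genes having counts at DIV7 and DIV28. The 10 astrocyte markers summed to between 958 and 1086 normalised counts at DIV0, between 1039 and 1865 at DIV7 and between 783 and 1094 at DIV28. The part of these cells in the result was not tested.

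Over the whole culture, from DIV0 to DIV28, *Nfia* fell by 2.86 (SE 0.26, adjusted p = 1.2e-05) and *Nfic* rose by 2.2 (SE 0.36, adjusted p = 0.00058, edgeR), in a comparison with 7.45% of genes called lower and 11.5% called higher. *Nfib* at -1.99 (SE 0.56, adjusted p = 0.015) passed only the adjusted limit, and without DIV28 replicate 3 it passed both at -2.72. *Nfix* at 1.69 (SE 0.64, adjusted p = 0.056) passed neither. The *Nfic* call was lost without either DIV0 library, at 2.21 in both cases with unadjusted p of 0.0013 and 0.0012. With the library titled DIV0 placed at DIV0 instead of DIV28, none of the 4 passed the unadjusted limit, and *Nfia* stood at -2.60 (unadjusted p = 0.0040). Motor neuron markers also changed over the culture. Of 7, 4 were called lower, *Isl2* (-3.80), *Mnx1* (-3.08), *Isl1* (-3.02) and *Chat* (-2.15), and *Prph* was called higher (3.37). Of 9 tested astrocyte markers 1 was called higher and 1 lower, with a median log2 fold change of 2.15 against 0.06 over all genes. The part of either cell type in the NFI values was not tested. The deviation of the library titled DIV0 from the DIV28 mean correlated at 0.571 over genes with that of the TTX library of the same number.

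TTX gave no call for any member, in a comparison in which 0.683% of genes were called in all. *Nfic* was 0.74 lower with TTX (SE 0.29, unadjusted p = 0.025, adjusted p = 0.51) and was the only one of the 4 with an unadjusted p under 0.05 in this fit, which did not pair the libraries. *Nfia* stood at 0.13 (SE 0.24), *Nfib* at 0.65 (SE 0.51) and *Nfix* at 0.49 (SE 0.46), each higher with TTX. These SEs do not exclude a change of 2-fold for *Nfib*, *Nfic* or *Nfix*. DIV28 and TTX libraries of the same number deviated together, and with the number as a block edgeR called 81 genes higher and 91 lower, against 36 and 52 without it. Still none of the 4 members was called. *Nfic* was then -0.78 (unadjusted p = 0.0040, adjusted p = 0.12) and *Nfib* 0.83 (unadjusted p = 0.037, adjusted p = 0.33). *Nfic* was lower with TTX in all 3 pairs, and *Nfia* and *Nfix* were higher in all 3.

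Tissue and culture were compared at a chosen start, E13.5 and DIV0, and a chosen end, P21 and DIV28. Whether these stages match was not tested. The paper set DIV0 to DIV28 against E10.5 to P21, and with E10.5 as start the *Nfic* difference given below changed sign. At the start, DIV0 nuclei had as much *Nfia* as E13.5 nuclei (log2 fold change -0.06, SE 0.32) but less *Nfib* (-2.77, SE 0.46), *Nfic* (-2.07, SE 0.36) and *Nfix* (-3.10, SE 0.51). The adjusted p of the last 3 lay between 2.1e-05 and 3.7e-05 in edgeR's test, and 24.3% of the 15521 genes tested were called lower. At the end, DIV28 nuclei had less *Nfib* (-4.16, SE 0.40), *Nfia* (-2.42, SE 0.28) and *Nfix* (-1.94, SE 0.32) than P21 nuclei, all 3 called, with 13.1% of genes called lower. *Nfic* was -0.58 (SE 0.26, adjusted p = 0.066 in edgeR's test) and was not called. These are values of nuclear RNA and not of protein. By immunostaining the paper reports robust NFIA and NFIB expression in DIV28 motor neurons. The difference between the change in culture and the change in tissue was tested as one contrast. *Nfia* fell by 2.36 more from DIV0 to DIV28 than from E13.5 to P21 on the log2 scale (SE 0.42, adjusted p = 5.6e-05), and 17.5% of genes were called lower in this contrast. *Nfib* at -1.39 (SE 0.57, adjusted p = 0.039) and *Nfic* at 1.49 (SE 0.44, adjusted p = 0.0054) passed the adjusted limit only, and without DIV28 replicate 3 *Nfic* passed both at 1.7. *Nfix* at 1.15 (SE 0.63, adjusted p = 0.12) did not. Under the adjusted limit and 2-fold, 4982 of the 15521 genes were higher and 3988 lower in this contrast, so passing it was common. Cell source and surroundings changed together with the system, and their effects cannot be told apart. The endothelial markers, at between 13256 and 24988 normalised counts at E13.5, summed to between 9.15 and 13.8 at DIV0. The oligodendrocyte markers, at between 6395 and 8639 at P21, summed to between 62 and 73.7 at DIV28, and the astrocyte markers, at between 1835 and 2361 at P21, to between 783 and 1094. The part of these cells in the differences between tissue and culture was not tested.

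The balance between the members was compared by the log2 ratio of a pair within each library, with 1 normalised count added to each value. Of 30 ratio comparisons, 18 passed an adjusted p of 0.05 in exact two-sided permutation tests, Benjamini-Hochberg adjusted over the 30. Of these 18, 3 are E10.5 ratios to *Nfix*, which had no count there, so that they depend on the count added, and 16 of the 30 passed when 5 counts were added. The ratios of a contrast share the same genes and are not independent, and those with TTX could not pass. Ratios of other gene pairs were not computed, so how often other pairs would pass is not known. The adult reference was the 8 libraries of P21, P56 and 2 years. They were joined because earlier results of these data showed few changes among these ages. The spread of this reference thus holds differences between ages as well as between replicates. The *Nfia* to *Nfib* ratio was tightly held in adults, at -0.53 ± 0.076 (SD, n = 8), and lay at -0.49 ± 0.062 at P4 (n = 3). At E13.5 it was -0.67 ± 0.29 (n = 2). Neither differed from the adults beyond the spread (exact permutation p = 0.48 and 0.20). At DIV28 the same ratio was 1.49 ± 1.08 (n = 3), 2.02 above the adults with no overlap (exact permutation p = 0.0061, the smallest this design allows, adjusted p = 0.014). The *Nfib* to *Nfic* ratio was 2.34 ± 0.19 at E13.5, 1.66 ± 0.097 at P4 and 0.99 ± 0.30 in adults. The E13.5 and P4 values each stood apart from the adults (exact permutation, adjusted p = 0.037 and 0.014). At DIV28 it was -2.85 ± 1.36, and at E10.5 it was -0.29 ± 0.37. The *Nfic* to *Nfix* ratio was 1.63 ± 0.34 at P4 against 2.42 ± 0.14 in adults (exact permutation, adjusted p = 0.014). No ratio passed between DIV28 and TTX, where unpaired tests of 3 against 3 libraries cannot go below an exact p of 0.10. Ratios were not tested within pairs. The Pearson correlation of the members over the 11 group means, which share libraries, was 0.87 for *Nfia* and *Nfib*, 0.80 for *Nfic* and *Nfix* and 0.43 for *Nfia* and *Nfic*, given as a description.

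The genes with the highest correlation to each member's pattern are listed as a description. They were picked as the highest of all genes compared, so they cannot be weighed against the paralogs. Among 14382 genes compared over the 11 group means of log2 normalised counts, those most like *Nfia* were *Gm50094* (r = 0.96), *Ptprd* (0.94), a receptor tyrosine phosphatase of synapses, *Chsy3* (0.94), which makes chondroitin sulfate, *Prkg1* (0.93), a cGMP-dependent kinase, and *Gm3558* (0.93). For *Nfib* they were *C130073E24Rik* (0.95), *Cdh8* (0.95), a cadherin, *Spata6* (0.94), *Nell1* (0.94), a secreted protein, and *Adamtsl2* (0.94). For *Nfic* they were *Gm42892* (0.97), *Fbxo9* (0.97), an F-box protein, *Mamld1* (0.97), *Rit2* (0.97), a small GTPase of neurons, and *Rmdn2* (0.97). For *Nfix* they were *Zfp804a* (0.98), a zinc finger protein, *Srgap2* (0.98), a regulator of neurite and spine growth, *Ica1l* (0.97), *Hs6st3* (0.97), a heparan sulfate sulfotransferase, and *Macf1* (0.96), a linker of microtubules and actin. With 11 points per gene, many genes reach high values, and the order among them is not tested.

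NFI genes belong to a series of transcription factors that mark neurons by their time of birth. Of 9 such factors 8 were tested, and 5 were called lower and 1 higher from E10.5 to E13.5, where 19.4% of all genes were called lower and 24.6% higher, with a median log2 fold change of -1.94 against 0.13 over all genes. *Onecut1* (-3.04) and *Onecut3* (-2.82), which mark early-born neurons, and *Pou2f2* (-4.04), which marks those born next, were among those lower, while *Neurod6*, a late marker, had a mean of 129 normalised counts at E13.5 and 0.509 at E10.5. From E13.5 to P21 *Onecut2* (1.95) and *Pou2f2* (1.34) were higher and 3 were lower, among them *Neurod6* (-4.33) and *Tcf4* (-1.35). Of all genes 29.8% were called higher and 26.3% lower over this span. From DIV0 to DIV28, where 7.45% of all genes were called lower, 3 of 7 tested were lower, *Pou2f2* by -3.15, *Onecut1* by -2.41 and *Zfhx4* by -1.94, and none was called with TTX. *Neurod6* had no count in any culture group.

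A list of 13 genes held those that NFI proteins are known to regulate in glial precursors or cerebellar granule neurons. Of these 12 were tested in vivo, and from E10.5 to E13.5 5 were called higher and 3 lower, with a median of 0.22 against 0.13 over all genes. At this step 24.6% of all genes were called higher and 19.4% lower. *Apcdd1*, a Wnt inhibitor, was 5.43 higher and *Fabp7*, a fatty acid binding protein of radial glia, 3.96 higher, while *Cntn2*, an axonal adhesion molecule, was -4.48 and *Wnt7a* -4.01. From E13.5 to P21, with *Nfia* and *Nfib* not called, 8 of the 12 were lower and 2 higher. Their median was -2.43 against 0.15 over all genes, of which 26.3% were called lower and 29.8% higher. *Apcdd1* (-7.24), *Fabp7* (-6.39) and *Efnb1* (-3.40) were the lowest, and *Gfap*, an astrocyte filament, went from no count in both E13.5 libraries to a mean of 385 normalised counts at P21. *Apcdd1*, *Fabp7*, *Slc1a3* and *Gfap* are also expressed by glia or vessel cells, whose part in these values was not tested. In culture 2 of 9 tested targets were lower from DIV0 to DIV28, *Fabp7* (-4.00) and *Ezh2* (-3.64), and 1 higher, *Wnt7a* (2.60), which was also the only one called with TTX (-2.78). Of all genes 7.45% were called lower and 11.5% higher from DIV0 to DIV28, and 0.683% were called with TTX. Of 4 partner factors that act with NFI proteins in gliogenesis, 3 were lower from E10.5 to E13.5, where 19.4% of all genes were called lower. They were *Olig2*, *Pou3f2* (-2.86) and *Sox9* (-2.08). From E13.5 to P21 *Sox10* was lower (-1.53) and *Olig2* higher, and in culture neither of the 2 tested was called from DIV0 to DIV28 or with TTX. *Olig2* had a mean of 692 normalised counts at E10.5 and 1.11 at E13.5.

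Open chromatin near the genes was taken from the peak lists that the authors called for each of 22 ATAC-seq libraries. Libraries held between 80386 and 224328 distinct peaks, and the 80000 most significant of each were used so that libraries counted equally. Peaks with a summit within 10000 bp of a gene were joined over all libraries where they overlapped. This gave 71 regions at *Nfia*, 78 at *Nfib*, 20 at *Nfic* and 25 at *Nfix*, of which 67, 76, 16 and 17 were intronic. A region was called open in a group when both replicates had a peak there. Fold enrichment, the height over the local background of the same library, depends on depth and noise, and values are set side by side between libraries only as a description.

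Regions that hold a coding start of the GENCODE annotation were open throughout for 3 of the 4 genes. The one at the first GENCODE start of *Nfia* (chr4:97771807-97772762) was open in all 11 groups with fold enrichments between 5.48 and 17.8. So were one at *Nfib* (chr4:82504141-82507212, 4.96 to 12.8) and one at *Nfic* (chr10:81429587-81431843, 4.34 to 11), which hold starts inside the longer GENCODE genes. All 3 were thus open at E10.5, when the RNA was low. The *Nfix* start (chr8:84798764-84800908) was open in 7 of 11 groups, including E10.5, where no *Nfix* count was found. At P21 it had a peak in 1 of 2 libraries, and at P56 in neither. A start inside *Nfic* (chr10:81407397-81408417) was not open at E10.5 or DIV0 and was open in the other 9 groups. In culture it rose from no peak at DIV0 to fold enrichments of 8.13 and 15.1 at DIV7 and 11 and 9.25 at DIV28, while *Nfic* RNA rose from 57.8 to 261 normalised counts. A start inside *Nfix* (chr8:84773693-84774833) was open only at P4, DIV7 and DIV28, 2 of which, P4 and DIV7, were the groups with the most *Nfix* RNA. A second start of *Nfia* (chr4:97777068-97779244) was open in 9 groups and lacked a peak in both DIV28 libraries without TTX.

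At P21, 10 of the 18 open regions at *Nfia* had no peak in either E10.5 library, as did 7 of 14 at *Nfib*, 3 of 9 at *Nfic* and 3 of 5 at *Nfix*. Over all chromosomes 33751 of 66473 regions open at P21, or 50.8%, were of this kind, so the share at the NFI genes was near that of the genome. Of the 10 new regions at *Nfia*, 3 were already open at E13.5, 6 at P4, 1 at DIV0 and 1 at DIV28, and 5 had no peak in any culture library without TTX. At *Nfib* 2 of 7 were open at E13.5, 4 at P4, 2 at DIV0 and 2 at DIV28, and 4 had no peak in culture without TTX. From DIV0 to DIV28 20 of the 28 regions open at *Nfia* at DIV0 went to no peak in either library, as did 9 of 14 at *Nfib*, 2 of 10 at *Nfic* and 3 of 6 at *Nfix*, against 53.1% over all chromosomes. Of the regions open at DIV28, 5 of 9 at *Nfia*, 7 of 13 at *Nfib*, 2 of 8 at *Nfic* and 1 of 4 at *Nfix* had no peak at DIV0, against 56.3%. In the other direction, 5 of 11 regions open at E10.5 at *Nfia* had no peak at P21, as did 6 of 11 at *Nfib*, 1 of 7 at *Nfic* and 5 of 8 at *Nfix*, against 42.4% over all chromosomes. Between E10.5 and P21 the material, the reporter and the ATAC-seq protocol changed together with age, and their effects cannot be told apart.

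**Figure D4:**
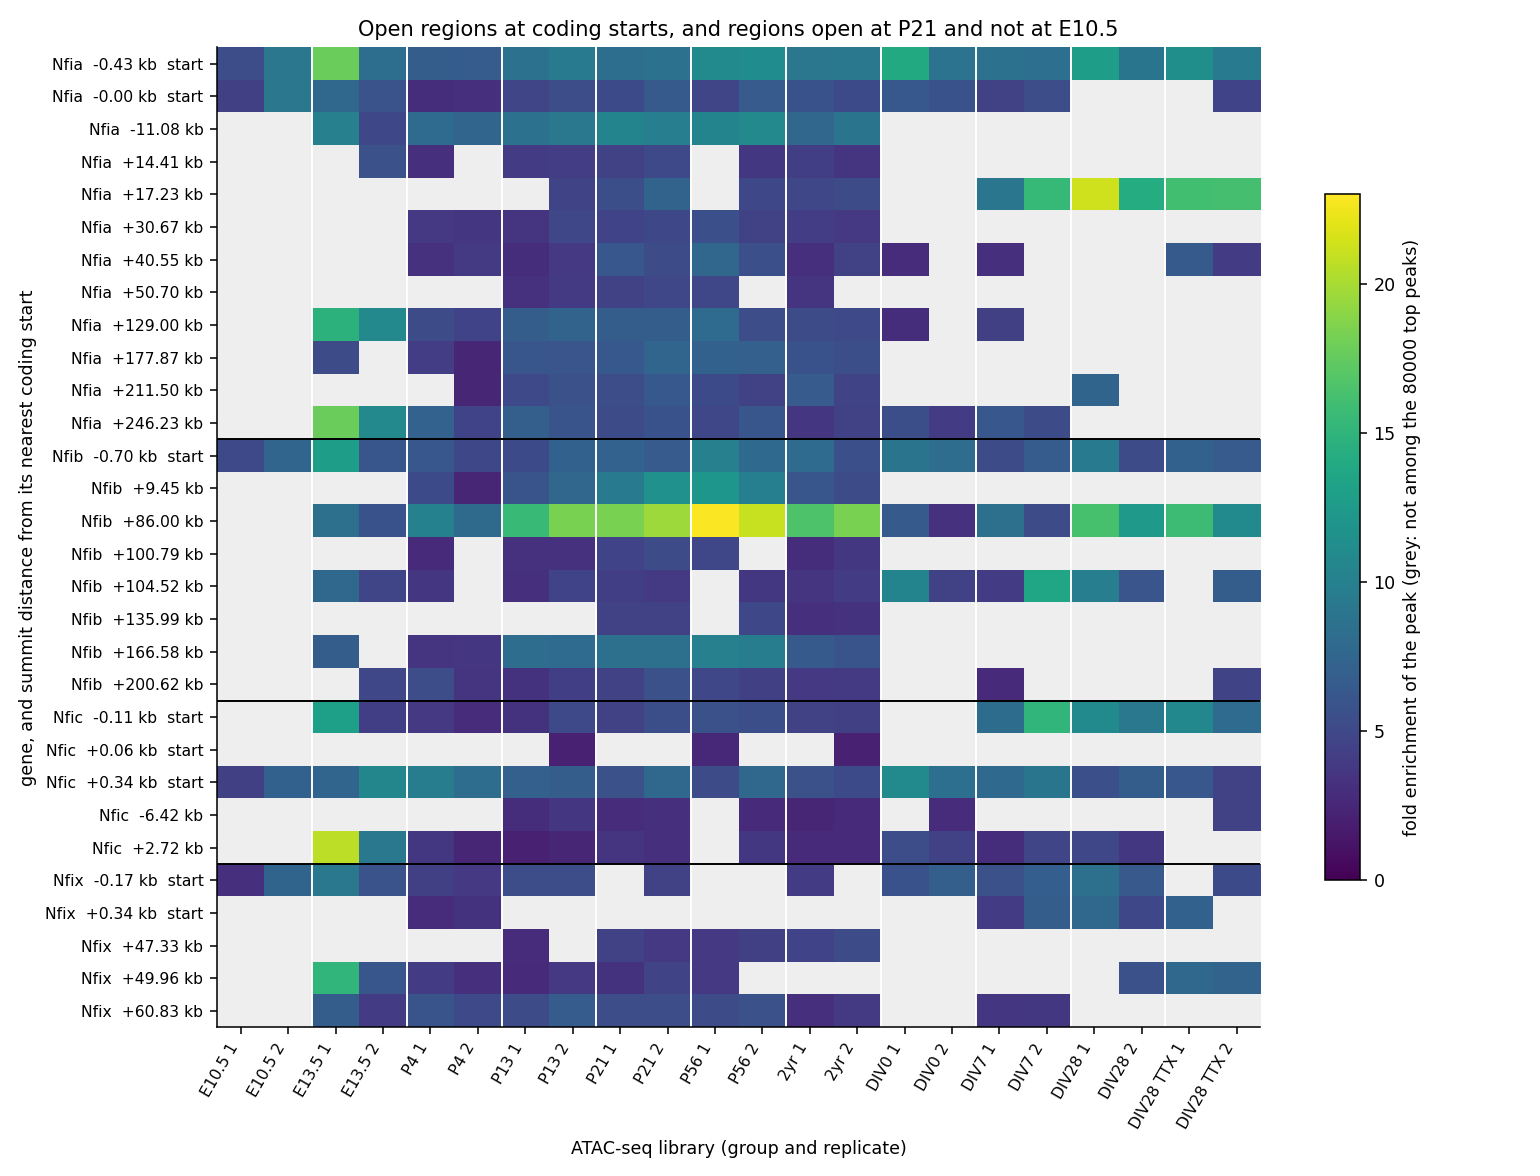
Rows are regions that hold a coding start ("start") or that were open at P21 and not at E10.5, ordered by gene and named by the distance of the summit from the nearest coding start, and columns are the 22 ATAC-seq libraries. Colour is the fold enrichment of the peak and grey means no peak among the 80000 used. The first *Nfia* start is coloured in all 22 libraries, between 5.48 and 17.8, and the new *Nfia* region just under the 2 *Nfia* starts is grey in every culture library.

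For each gene the regions with the highest fold enrichment at P21 among those absent at E10.5 are the ones most marked in mature neurons, and the bases within 100 bp of their summits are shown from the mm10 reference, plus strand, in lower case. Capitals mark TTGGC or its reverse complement GCCAA, the core of an NFI site, searched on both strands. Of all windows of this length at the P21 top peaks, 39.8% and 40.2% hold this core in the 2 libraries. The window at *Nfia* (chr4:97868942-97869142) is intronic and lies at -11077 bp from the nearest coding start. It holds 3 cores and overlaps the start of the noncoding RefSeq gene Gm19417. The first window at *Nfib* (chr4:82619651-82619851) holds 1 core and overlaps a histidine tRNA gene, n-THgtg10 (chr4:82619623-82619694, minus strand). The second at *Nfib* (chr4:82696205-82696405) holds none. Both lie in introns of the GENCODE gene but outside the shorter RefSeq one (chr4:82290173-82506751). At *Nfic* (chr10:81424297-81424497, second in rank, the first overlapping an exon) and *Nfix* (chr8:84712465-84712665) the intronic windows hold none.
Nfia, chr4:97868942-97869142: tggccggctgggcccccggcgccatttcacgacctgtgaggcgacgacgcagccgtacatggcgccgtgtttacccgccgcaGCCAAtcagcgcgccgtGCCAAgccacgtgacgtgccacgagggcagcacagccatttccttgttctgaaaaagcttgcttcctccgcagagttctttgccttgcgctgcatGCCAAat
Nfib, chr4:82619651-82619851: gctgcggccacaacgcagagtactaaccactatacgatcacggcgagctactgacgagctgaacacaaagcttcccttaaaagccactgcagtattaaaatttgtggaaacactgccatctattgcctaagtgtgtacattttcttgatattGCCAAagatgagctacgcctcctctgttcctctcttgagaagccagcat
Nfib, chr4:82696205-82696405: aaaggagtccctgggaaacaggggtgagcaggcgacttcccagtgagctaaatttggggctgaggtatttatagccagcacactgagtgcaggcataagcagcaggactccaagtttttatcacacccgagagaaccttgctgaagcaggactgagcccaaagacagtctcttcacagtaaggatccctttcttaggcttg
Nfic, chr10:81424297-81424497: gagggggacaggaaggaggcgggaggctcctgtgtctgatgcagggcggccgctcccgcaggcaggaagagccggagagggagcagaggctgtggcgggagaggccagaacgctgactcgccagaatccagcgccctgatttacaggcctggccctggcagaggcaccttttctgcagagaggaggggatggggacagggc
Nfix, chr8:84712465-84712665: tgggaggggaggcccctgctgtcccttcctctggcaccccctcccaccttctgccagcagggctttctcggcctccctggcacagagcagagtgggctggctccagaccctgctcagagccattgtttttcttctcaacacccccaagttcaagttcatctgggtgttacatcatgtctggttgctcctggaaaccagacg

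The *Nfia* window was open in every in vivo group from E13.5 on and in no culture library, with fold enrichments of 10.3 and 9.81 at P21. The *Nfib* window at the tRNA gene was open in 10 of 11 groups, lacking only at E10.5. Its fold enrichment was 8.51 and 5.84 at E13.5, 18.3 and 19.7 at P21, 6.53 and 3.28 at DIV0 and 16.3 and 12.4 at DIV28. Absence at E10.5 and a high P21 value follow from how these windows were chosen. At DIV28 the fold enrichment of this window was above that at DIV0, although *Nfib* RNA was low at DIV28. The second *Nfib* window was open at P4 and at every later age, with 9.54 and 11.7 at P21, and had no peak in any embryonic or culture library. An intronic region of *Nfia* 17230 bp past a start (chr4:97794521-97795388) had its highest fold enrichments in culture, 21.3 and 14.3 at DIV28 and 9.05 and 15.4 at DIV7, against 5.54 and 7.34 at P21 and no peak at DIV0. The *Nfix* window was open in every in vivo group from E13.5 on and at DIV7, the culture group with the most *Nfix* RNA.

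A relaxed form of the palindrome was searched for as TGGC and GCCA separated by 5 bases of any kind, the same on both strands. The outer T of each core was thus not required. It was found in 3 of the 194 regions, 1 each at *Nfia*, *Nfib* and *Nfix*, and in none of the regions that were open at P21 and not at E10.5. For comparison, 1.53% and 1.55% of the windows at P21 top peaks hold it, and 0.807% of 32851 RefSeq promoters of the mm10 build, 300 bases long. None of the promoter sequences of *Nfia* (1), *Nfic* (1) and *Nfix* (4) holds it, and TTGGC is in 3 of the 4 of *Nfix*, against 46.7% of all promoters. The *Nfib* site is shown because its region was open in the most groups of the 3, 8 of 11, with the palindrome in capitals. Unlike the sites at *Nfia* and *Nfix*, it has no TTGGC core in either arm, which read CTGGC and GCCAG. It was singled out after its values were seen.
Nfib, chr4:82690373-82690485: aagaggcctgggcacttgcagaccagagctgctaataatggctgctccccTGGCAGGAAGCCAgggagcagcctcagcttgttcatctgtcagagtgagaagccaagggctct

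That region (chr4:82690057-82690986) had fold enrichments of 11.7 and 9.50 at E13.5, 7.84 and 7.67 at P21 and 7.95 and 6.79 at DIV28. It had a peak in 1 of 2 E10.5 libraries, at 2.43, and none at DIV0. The sites at *Nfia* and *Nfix* lay in regions that were open in both replicates of no group.

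Across the genome the same palindrome gave a readout of NFI motif content in open chromatin. In the 10000 most significant distal peaks of a library, more than 2000 bp from any transcript start, 0.610% and 0.710% of the windows within 100 bp of the summit held it at E10.5. The share was 4.94% and 4.72% at E13.5, 1.71% and 1.45% at P4 and between 1.60% and 1.91% from P13 to 2 years. In windows moved by 1000 bp it stayed between 0.290% and 0.601% in all 22 libraries. The 95% Wilson intervals of the E10.5 libraries reached at most 0.895% and those of P21 began at 1.46%, while those at E13.5 began at 4.32%. The mean share was thus 7.32-fold that of E10.5 at E13.5 and 2.58-fold at P21. E10.5 libraries came from whole cells and later ones from nuclei, with another reporter and ATAC-seq protocol, and these and age cannot be told apart. In culture it was 1.16% and 1.32% at DIV0, 1.36% and 1.68% at DIV7, 2.16% and 2.08% at DIV28 and 2.5% and 2.78% with TTX. With 2 libraries a group no permutation test can pass 0.05, and intervals cover counting error only. The order of ages was not the same for TTGGC alone, whose share was 31.7% and 32.7% at E10.5 and 39.3% and 40.6% at E13.5, with group means between 40.8% and 41.6% from P13 to 2 years. The palindrome does not tell the 4 proteins apart. E13.5 was the age at which RNA held the most endothelial and erythroid transcripts. The paper purified nuclei by affinity for RNA-seq and by sorting for ATAC-seq, and it reports higher purity at E13.5 for the sorted nuclei. The part of endothelial and erythroid cells in the E13.5 peaks was not tested.

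**Figure D5:**
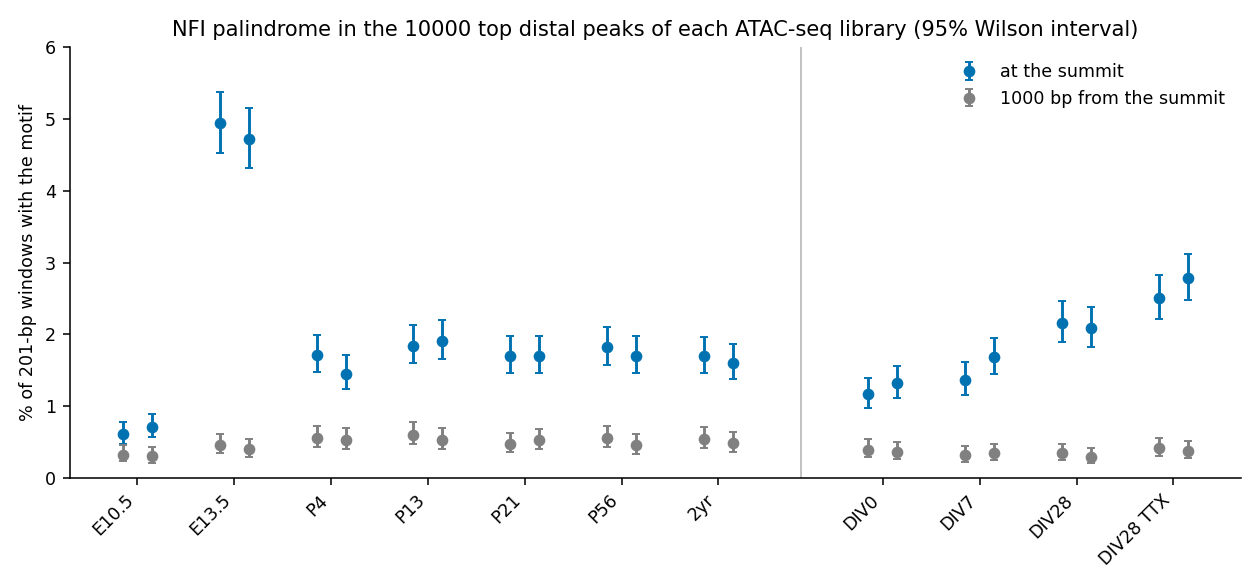
Points are the shares of windows (vertical axis, %) with the palindrome at the summits of the 10000 top distal peaks (blue) and 1000 bp away (grey) for each ATAC-seq library (horizontal axis, 2 per group), with 95% Wilson intervals. The E10.5 libraries lay at 0.610% and 0.710%, the E13.5 libraries at 4.94% and 4.72% and the P21 libraries at 1.7% each.

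Reads of overlapping genes could enter these counts, because the counting did not use strand. The overlapping genes with exons or spans across a member's exons were *E130114P18Rik* at *Nfia*, *Gm16104* at *Nfic*, and *Lyl1* and *G430095P16Rik* at *Nfix*. Their own levels were at most 10.6, 34.7, 25.3 and 7.39 normalised counts in any library. *Lyl1*, a gene of blood and vessel cells, had 20.3 and 25.3 at E13.5, against 66.5 and 32.6 for *Nfix*, and its mean was 3.01 at P4. *Gm16104* had 17.5 and 34.7 at E13.5 and no count from P21 on.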

How the data were processed

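RNA-seq was measured in 28 libraries and ATAC-seq in 22. The authors aligned RNA reads to mm10 with STAR 2.5.2b and deposited expected counts per gene from RSEM 1.3.0, counted without strand although the kit keeps it, so antisense reads could enter. Peaks were called by the authors with MACS2 2.2.7.1 for each library, and the deposited files give fold enrichment (a ratio) and −log10 p per peak.

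Expected counts were rounded and tested with edgeR 4.0.16 (quasi-likelihood, TMM), keeping genes at a CPM of 5 or more in all replicates of at least 1 group. The 18 in vivo and 10 in vitro libraries were fitted separately, and 25 together, without TTX, for comparisons between systems. Calls needed an unadjusted p under 0.001 and 2-fold, and Benjamini-Hochberg adjustment ran over all tested genes. Levels are counts divided by median-of-ratios factors over all 28 libraries, and per kb by RSEM's effective length. Depth was 2704642 to 21823492 counts. Paralog ratios (1 normalised count added) were tested by exact two-sided permutation with scipy 1.17.1. Of 55385 genes, those named are the members and the genes most like each over 11 group means (at most 5 a member). From each list at most 4 are named per comparison, by size of change among those called. *Olig2* and *Gfap*, and *Neurod6* from E10.5 to E13.5, are given by level because counts were near 0 in a group. Peaks at the same interval were counted once. Scripts were tested on simulated data. The members and lists (temporal factors, NFI targets, partners, cell type markers) were chosen with earlier results of these data known. Groups came from the labels, except that the library titled DIV0 replicate 3 was placed at DIV28 by its file label. DIV28 and TTX libraries of the same number deviated together (correlations over genes 0.462, 0.386 and 0.571) and were taken as paired, but the fit given first leaves the pairing out. No other comparison met the rule for pairing. DESeq2 1.42.0, other scalings and filters, pairing and leaving out each library were tried as alternatives.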

Additional observations from a re-analysis of the deposited data

Results flagged for a closer look

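For 3 members the change over culture differed from the change over development, at an adjusted p under 0.05 and 2-fold in the test of the difference itself. Of the 15521 tested genes 4982 were higher and 3988 lower under this rule, so passing it was common. Only *Nfia* also passed the unadjusted limit. The log2 change from DIV0 to DIV28 minus that from E13.5 to P21 was -2.36 for *Nfia* (adjusted p = 5.6e-05), -1.39 for *Nfib* (adjusted p = 0.039) and 1.49 for *Nfic* (adjusted p = 0.0054) in edgeR's test. *Nfia* was -2.86 in culture and -0.29 in tissue, *Nfib* -1.99 and -0.38, and *Nfic* 2.2 and 0.92. The *Nfic* difference was -0.21 when E10.5 stood in for E13.5.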

How the results depend on the processing

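Of 714 alternative values for the members' changes, 652 kept their direction and side of the threshold, 22 lost a call, 19 gained one and 21 changed sign, none of them for a change called in the main analysis. The changes of sign were as follows. For E13.5 to P4, *Nfia* was -0.0289 without a filter and between -0.0155 and 0.446 leaving out 1 library (below 0 without E13.5 replicate 2). *Nfib* was -0.0831 with DESeq2 and with median-of-ratios factors, -0.196 without a filter, -0.0075 with the replicate block, -0.0324 with only the compared groups and between -0.0255 and 0.091 leaving out 1 library (below 0 without P4 replicate 1). For P13 to P21, *Nfia* was 0.0219 with DESeq2, 0.0231 with median-of-ratios factors and between -0.197 and 0.0764 leaving out 1 library (above 0 without P13 replicate 2 or P21 replicate 1). *Nfib* was 0.0049, 0.0054 and between -0.197 and 0.0234 (above 0 without P13 replicate 2), and *Nfic* was -0.00088 with the replicate block. Leaving out 1 library, *Nfib* from DIV0 to DIV7 lay between -0.235 and 0.60 (below 0 without DIV7 replicate 2), *Nfia* with TTX between -0.0522 and 0.280 (below 0 without TTX replicate 3), and *Nfia* from E13.5 to DIV0 between -0.261 and 0.282 (above 0 without E13.5 replicate 1). With E10.5 in place of E13.5 the difference between systems was -0.21 for *Nfic* and -7.63 for *Nfix*, a fitted value against a group with no count and no bound. The count of members called was 0 from E13.5 to P4 with only the compared groups, and 0 to 1 leaving out 1 library. It was 0 to 1 from E13.5 to P21 (1 without E13.5 replicate 1), 1 to 2 from DIV0 to DIV7, 0 to 1 from DIV7 to DIV28, 1 to 3 from DIV0 to DIV28 and 1 to 2 for the difference between systems (2 without DIV28 replicate 3). With the mistitled library at DIV0 it was 0 from DIV0 to DIV7, 0 from DIV0 to DIV28 and 0 for the difference. From DIV7 to DIV28 it was 2 under the adjusted limit, DESeq2, no filter or the replicate block, and the difference between systems gave 3 under the adjusted limit, no filter or E10.5 as start. Pairing by replicate number changed no other count, and with it TTX gave 0 calls (*Nfic* -0.78, adjusted p = 0.12). Against P21 alone 0 of 30 paralog ratios could pass, the groups being too small, and 14 to 18 passed leaving out 1 library. New regions at P21 numbered 16 at *Nfib* and 7 at *Nfic* with all peaks, and 4 at *Nfib* and 1 at *Nfix* with the top 50000. The P21 to E10.5 ratio of the palindrome's share was 5 when the outer T of both cores was required, which rests on at most 3 peaks a library, 1.27 for TTGGC alone and 3.42 within 50 bp. Beyond the limits of group size named here, the cause was not tested. Alternatives that left out 1 library for the regions and the motif were chosen after seeing the data.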
